A study of Oryctolagus cuniculus with 4 samples.

Results

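Matrix metalloproteases (MMPs), ADAM and ADAMTS proteases and the tissue inhibitors of metalloproteases (TIMPs) were examined in rabbit ear hypertrophic scar (HS) treated with drug-loaded microneedles. Members were all genes whose name in the deposited table starts with MMP or ADAM and a digit, with ADAMTS, or with TIMP and a digit. This gave 48 of 13913 genes, which were 17 MMP, 13 ADAM, 13 ADAMTS, 2 ADAMTS-like and 3 TIMP genes. MMP9, TIMP2 and ADAM17 were not analysed here. The values came from single-cell RNA sequencing libraries of ventral ear epidermis and dermis of female wild-type rabbits, in 2 groups of 2. In the HS group, round wounds of the ventral ear had scarred after newly formed wound tissue was removed to speed up scarring, and the scars were left untreated. In the drug-loaded MNs group, the same kind of scar received drug-loaded microneedles weekly for 3 weeks, and tissue was taken a week after the last patch. The tips of these needles stay in the skin and consist of crosslinked methacrylated gelatin with a peptide prodrug of a 5-fluorouracil derivative. No library of drug-free microneedles was analysed here, so that the needles and the drug cannot be told apart. Each library came from 1 scar tissue. The study calls the samples of a group biologically independent but does not say whether they came from different rabbits, and p-values measure only the spread between these libraries. The methods state the age of the rabbits at purchase and not at tissue collection.

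MMPs are zinc-dependent enzymes that are made as inactive proenzymes and, once activated, cut collagens, gelatin and other matrix proteins. ADAMs are membrane-bound relatives that release the outer parts of growth factors and receptors from the cell surface, and ADAMTS enzymes are secreted relatives that cut proteoglycans, procollagens and other matrix proteins. TIMPs block the active site of these enzymes. In scar tissue the balance of these proteases and inhibitors sets how fast deposited matrix is turned over, and gelatinases also degrade gelatin-based needle tips. RNA levels, which are given here, do not measure enzyme activity.

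The 4 libraries had values above 0 for 11844 to 12059 genes, and for 41 to 43 of the 48 members. Their depth is unknown, because every library was scaled to the same total. Values below are relative expression, where 1 unit is 1 part in 1000000 of everything counted in that library. Together the members took up 0.192% and 0.170% of an HS library and 0.307% and 0.249% of a drug-loaded MNs library. Fold changes are differences of mean log2(value + 1), which understates the change of low genes, and were tested with limma over the 9348 genes whose mean reached 1 unit. Over all tested genes the median was 0.12 on this scale, against which the values of members are to be read. Markers of cell types also differed between the groups. Summed over the 6 fibroblast markers in the table, expression was 23000 and 22530 units in HS and 44680 and 48620 units in drug-loaded MNs, and all 6 were higher in drug-loaded MNs (median log2 fold change 1.12). PDGFRA, another fibroblast marker, was not analysed here. The 7 macrophage markers summed to 78.9 and 97.1 units in HS and 198.4 and 198.2 units in drug-loaded MNs. The share of mitochondrially encoded genes was 2.75% and 2.80% of the HS libraries and 4.37% and 4.58% of the drug-loaded MNs libraries. The part of these differences in the results for members was not tested, beyond the ratios to fibroblast markers given further on. In values per library, a different number of cells of a type and a different RNA content per cell cannot be told apart.

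None of the 34 tested members passed an adjusted p of 0.05 in limma, where 4 of all 9348 genes did (0.0428%, with 0.0214% higher and 0.0214% lower). At an unadjusted p under 0.05 there were 10 members, all higher in drug-loaded MNs. This is 29.4% of the tested members, against 8.65% of all tested genes, of which 7.26% were higher and 1.39% lower. The 10 were ADAMTS1, ADAMTS3, ADAMTS5, ADAMTS12, ADAMTS15, ADAMTSL1, ADAM19, MMP19, MMP27 and TIMP1. In 17 members both drug-loaded MNs libraries lay above both HS libraries (17 of 34, against 26.6% of all tested genes), and in 1 member both lay below (11.2% of all tested genes). The 18 members without overlap are 52.9% of those tested, and the background is 37.8%. A log2 fold change over 1 was seen in 4 members (TIMP1, ADAMTS5, ADAMTSL1 and ADAM19; 2.78% of all tested genes) and below -1 in 1 member (MMP3; 0.599% of all tested genes). The log2 fold change was above 0 in 27 of 34 members (79.4%, against 64.6% of all tested genes), with a median of 0.37. By family, 12 of 13 ADAMTS and ADAMTS-like genes, 7 of 8 ADAMs, all 3 TIMPs and 5 of 10 MMPs had a log2 fold change above 0, and with quantile normalization, which brought the median of all genes to -0.020, these counts were 9, 6, 3 and 5. The family median of the MMPs was 0.06 and turned to -0.07 with median ratio scaling and -0.02 with quantile normalization, while the medians of the other families were above 0 with each scaling tried. Whether the families differ from each other was not tested. HS replicate 1 carried the highest level of several inducible MMPs described below. Without it the median log2 fold change was 0.44 over the 33 tested members, against 0.043 over all tested genes.

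**Figure D1:**
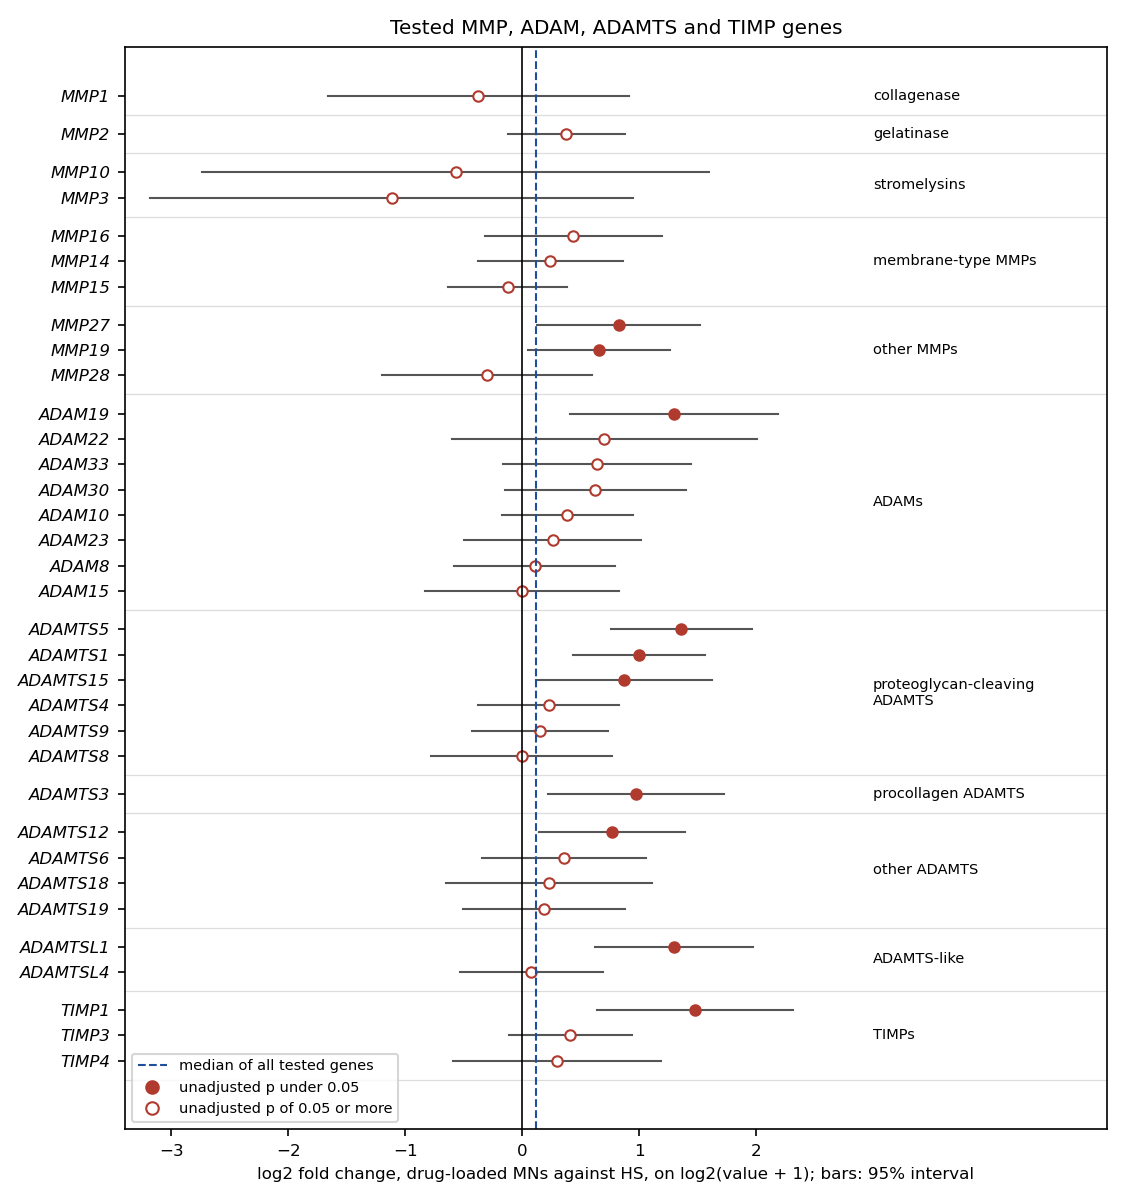
Each point is the log2 fold change of a tested member between drug-loaded MNs and HS (2 libraries each), on the log2(value + 1) scale, and the bar is its 95% interval from limma. Filled points mark the 10 members with an unadjusted p under 0.05 (8.65% of all tested genes), and the dashed line is the median of all tested genes (0.12). Few genes were tested in the classes without a filled point among the MMPs: 1 collagenase, 2 stromelysins, 1 gelatinase and 3 membrane-type MMPs.

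The filter left out 14 members. Of these, 4 were listed at 0 in all libraries: MMP7 (matrilysin), MMP8 (the neutrophil collagenase), MMP20 (an enamel protease) and ADAM6A. An exact 0 in this table is not proof of absence, since COX3, ATP6, ND3 and ND4, mitochondrial genes that every cell uses, are listed at 0 too. The other 10 were MMP12, MMP13, MMP24, MMP26, ADAM1A, ADAM7, ADAM11, ADAM28, ADAMTS14 and ADAMTS20, and no library reached more than 1.27 units in any of them. MMP24, MMP26, ADAM1A, ADAM7, ADAM11 and ADAMTS20 did not exceed 0.787 units. MMP12, the macrophage elastase, was closest to the filter, with 0.686 and 0.394 units in HS and 1.19 and 1.05 units in drug-loaded MNs. ADAMTS14, a procollagen N-propeptidase, had 0.498 and 0.418 units in HS and 0.862 and 1.21 units in drug-loaded MNs. In both genes the drug-loaded MNs libraries were the higher ones, at levels too low to be tested. MMP24 went the other way, with 0.0314 and 0.0296 units in HS and 0.0152 and 0 units in drug-loaded MNs. MMP13, a collagenase, had 1.17 and 0.264 units in HS and 0.470 and 1.27 units in drug-loaded MNs, so that the groups overlapped. ADAM28 was listed at 0 in both HS libraries and at 0.0276 and 0.0526 units in drug-loaded MNs. Among the tested members, 2 (ADAM23 and MMP3) had a mean under 1 unit in 1 of the groups.

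Among the MMPs, MMP2 (ENSOCUG00000006714), gelatinase A, was the only gelatinase analysed. The study designed its needle tips to be degraded by MMP2 and MMP9. By tissue staining a week after the last patch, it reported lower MMP2 and MMP9 protein with drug-loaded and with drug-free needles. The values here are RNA, and how they relate to that staining was not tested. MMP2 stood at 703 and 643 units in HS and at 865 and 883 units in drug-loaded MNs. The groups did not overlap, and both pairs of replicates lay close together (SD 42.8 and 12.7 units). The log2 fold change was 0.38 (SE 0.21, 95% interval -0.12 to 0.88, limma adjusted p 0.722). MMP14 (ENSOCUG00000010244), the membrane-type enzyme that activates pro-MMP2 on the cell surface, had 50.8 and 45.7 units in HS and 69.8 and 46.7 units in drug-loaded MNs. Only drug-loaded MNs replicate 1 stood above the HS libraries (log2 fold change 0.24, limma adjusted p 0.871), and the difference turned to -0.044 without it. MMP15, another membrane-type MMP (ENSOCUG00000014015), had 72.0 and 82.7 units in HS and 70.7 and 70.5 units in drug-loaded MNs. It was the member whose drug-loaded MNs libraries both lay below HS, by a log2 fold change of -0.13 (95% interval -0.63 to 0.38, limma adjusted p 0.918). MMP16 ranged from 9.64 to 20.1 units with overlapping groups.

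MMP27 (ENSOCUG00000001090), a little-studied member of the stromelysin gene cluster, had 37.6 and 21.8 units in HS and 49.0 and 54.3 units in drug-loaded MNs. Its log2 fold change was 0.82 (SE 0.30, 95% interval 0.12 to 1.52, limma adjusted p 0.479). MMP19 (ENSOCUG00000005109), which cuts basement membrane proteins, had 25.7 and 19.1 units in HS and 38.0 and 33.3 units in drug-loaded MNs, with a log2 fold change of 0.66 (SE 0.26, adjusted p in limma 0.524). In both genes the groups did not overlap. MMP28, an MMP of keratinocytes, had 4.87 and 2.49 units in HS and 3.64 and 1.91 units in drug-loaded MNs, with overlapping groups.

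In the interstitial collagenase and the stromelysins, HS replicate 1 set the highest level. MMP1 (ENSOCUG00000017958), which makes the first cut in fibrillar collagen, had 117.6 and 33.4 units in HS and 63.8 and 36.4 units in drug-loaded MNs. The highest and the lowest value were thus both in HS, and the log2 fold change of -0.38 (95% interval -1.66 to 0.91, limma adjusted p 0.902) turned to 0.52 without HS replicate 1. MMP3 (stromelysin-1), which activates other pro-MMPs, had 10.2 and 0.215 units in HS and 0.576 and 0.837 units in drug-loaded MNs (log2 fold change -1.12, 95% interval -3.18 to 0.95, limma adjusted p 0.813). MMP10 (stromelysin-2) had 7.44 and 0.334 units in HS and 0.0821 and 3.72 units in drug-loaded MNs (log2 fold change -0.57, SE 0.93, limma adjusted p 0.913). All 3 genes were highest in HS replicate 1. In the same library the summed neutrophil markers reached 226 units, against 17.7 to 53.1 in the other libraries. That sum came mostly from S100A8 (153.5 units) and S100A9 (71.8 units), alarmin genes of neutrophils and of stressed keratinocytes. MPO, which defines neutrophils more strictly, was at 0.662 units in HS replicate 1 and at 0.806 units in drug-loaded MNs replicate 2. Chondrocyte and Schwann cell markers were highest in that library too, at 388.2 and 428.2 units. The part of these cells in the MMP values was not tested.

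MMP1, MMP3 and MMP10 are neighbours. All 48 members were found by symbol among the RefSeq genes of assembly mOryCun1.1, in which 9 MMP genes follow each other in the order MMP7, MMP20, MMP27, MMP8, MMP10, MMP1, MMP3, MMP12 and MMP13, with 1 other protein-coding locus among them. Across this cluster 3 genes were listed at 0, and the adjacent MMP10, MMP1 and MMP3 had their highest value in HS replicate 1. MMP27 had both drug-loaded MNs libraries above both HS libraries. ADAMTS5 and ADAMTS1, described below, also lie side by side, as do ADAMTS8 and ADAMTS15.

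**Figure D2:**
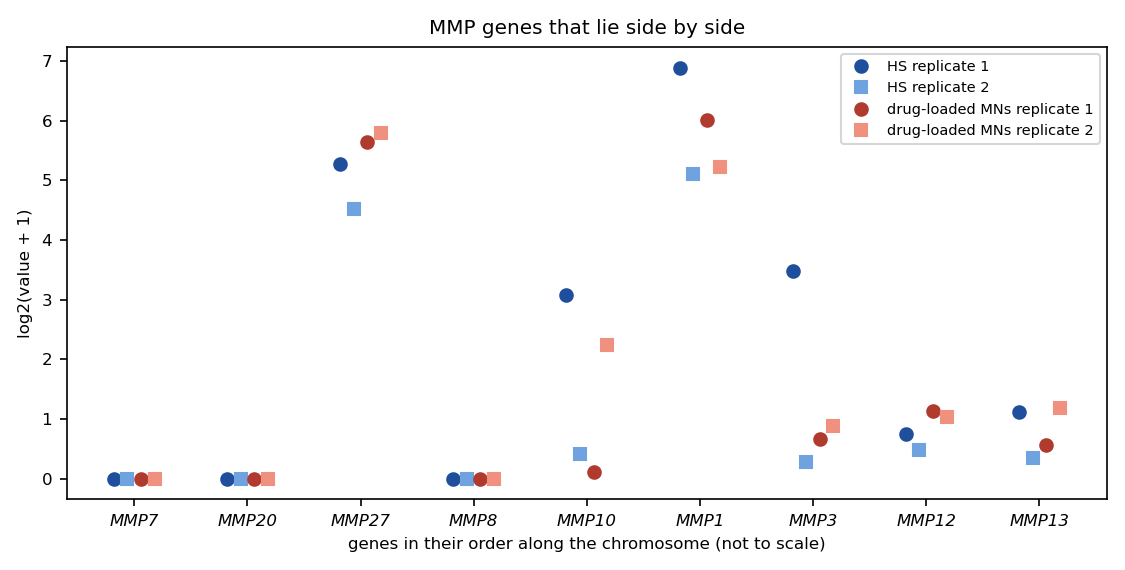
Log2(value + 1) of the 9 MMP genes of the cluster in each of the 4 libraries, in the order of the genes along the chromosome and not to scale. HS replicate 1 (dark blue circles) is the highest point for MMP10, MMP1 and MMP3, while for MMP27 both drug-loaded MNs libraries lie above both HS libraries, and MMP7, MMP20 and MMP8 sit at 0.

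The proteoglycan-cleaving ADAMTS genes split into those that were higher in both drug-loaded MNs libraries and those with overlapping groups. ADAMTS5 (ENSOCUG00000002859), aggrecanase-2, which cuts versican and aggrecan, had 26.1 and 37.4 units in HS and 87.0 and 76.7 units in drug-loaded MNs. Every drug-loaded MNs value was more than 2 times the higher HS value. Its log2 fold change was 1.36 (SE 0.26, 95% interval 0.76 to 1.96) with an unadjusted p of 0.00096, and the limma adjusted p was 0.264. ADAMTS1 (ENSOCUG00000016362), which also cuts versican, had 88.9 and 109 units in HS and 226 and 173 units in drug-loaded MNs. Its log2 fold change was 0.999 (SE 0.24, 95% interval 0.44 to 1.56, limma adjusted p 0.316). ADAMTS15 had 1.83 and 2.59 units in HS and 5.92 and 3.92 units in drug-loaded MNs, which differ by 0.87 on the log2 scale (SE 0.32, adjusted p in limma 0.485) at low levels.

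ADAMTS4 (ENSOCUG00000013498), aggrecanase-1, had 42.2 and 47.0 units in HS and 43.6 and 62.5 units in drug-loaded MNs. Its groups overlapped, with a log2 fold change of 0.22 (95% interval -0.38 to 0.83, limma adjusted p 0.877), and the value was -0.031 without drug-loaded MNs replicate 2. ADAMTS9 ranged from 19.8 to 25.3 units (log2 fold change 0.15) and ADAMTS8 from 0.866 to 1.61 units (log2 fold change -0.0050), both with overlapping groups. VCAN, the gene of the substrate versican, had 108.6 and 67.8 units in HS and 143.2 and 171.6 units in drug-loaded MNs (log2 fold change 0.86, limma adjusted p 0.420).

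Of the other ADAMTS genes, ADAMTS3 (ENSOCUG00000003040), which removes the amino-terminal propeptide of procollagens, had 13.2 and 10.1 units in HS and 30.5 and 18.2 units in drug-loaded MNs. The groups did not overlap, and the log2 fold change was 0.97 (SE 0.32, adjusted p in limma 0.428). ADAMTS12 (ENSOCUG00000006357) had 11.3 and 14.6 units in HS and 20.8 and 24.6 units in drug-loaded MNs, again without overlap (log2 fold change 0.77, SE 0.27, limma adjusted p 0.447). ADAMTS6 ranged from 1.27 to 2.38 units, ADAMTS18 from 1.86 to 4.54 units and ADAMTS19 from 1.73 to 2.44 units, with log2 fold changes of 0.36, 0.23 and 0.19. The ADAMTS-like genes code for secreted matrix proteins that lack the protease domain. ADAMTSL1 (ENSOCUG00000004895) had 16.1 and 21.9 units in HS and 57.6 and 39.3 units in drug-loaded MNs. The groups stood well apart, with a log2 fold change of 1.30 (SE 0.29, 95% interval 0.62 to 1.98, limma adjusted p 0.314). ADAMTSL4, which binds fibrillin microfibrils, differed by 0.078 on the log2 scale, with 18.5 and 15.6 units in HS and 19.9 and 16.3 units in drug-loaded MNs.

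Among the ADAMs, ADAM10 (ENSOCUG00000016023), the sheddase of Notch receptors and E-cadherin, had 67.0 and 89.0 units in HS and 107.9 and 94.6 units in drug-loaded MNs. The groups did not overlap, but the step from the higher HS library to the lower drug-loaded MNs library was smaller than the gap between the HS libraries (log2 fold change 0.38, SE 0.24, 95% interval -0.18 to 0.94, limma adjusted p 0.748). ADAM19 (ENSOCUG00000001235), a sheddase of neuregulins, had 0.422 and 1.74 units in HS and 3.72 and 3.97 units in drug-loaded MNs. Its drug-loaded MNs libraries nearly coincided and lay above both HS libraries (log2 fold change 1.30, SE 0.38, 95% interval 0.41 to 2.18, limma adjusted p 0.383). ADAM33 and ADAM30 also had both drug-loaded MNs libraries above HS, with log2 fold changes of 0.64 and 0.62 and levels of 1.37 to 7.93 units. The groups overlapped in ADAM8, a leukocyte ADAM (4.22 to 5.70 units), in ADAM15 (3.97 to 8.10 units), and in ADAM22 (0.977 to 6.82 units) and ADAM23 (0.612 to 1.39 units), which lack protease activity. ADAM15 had a log2 fold change of -0.0029 (95% interval -0.83 to 0.83).

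TIMP1 (ENSOCUG00000010718), a secreted inhibitor of most MMPs, had the highest log2 fold change of the tested members. It stood at 286 and 170 units in HS and at 828 and 457 units in drug-loaded MNs. The groups did not overlap, although the drug-loaded MNs libraries lay far from each other (SD 262 units). The log2 fold change was 1.48 (SE 0.36, 95% interval 0.64 to 2.32, limma adjusted p 0.316). Without drug-loaded MNs replicate 2, the lower library of its group, it was 1.91, and without drug-loaded MNs replicate 1 it was 1.05. TIMP3 (ENSOCUG00000008310), which is bound to the matrix and also inhibits ADAM10 and ADAMTS enzymes, had 248 and 270 units in HS and 387 and 306 units in drug-loaded MNs. Its groups did not overlap, with a log2 fold change of 0.41 (95% interval -0.11 to 0.94, limma adjusted p 0.709). TIMP4 (ENSOCUG00000015952) had 5.27 and 2.15 units in HS and 4.30 and 4.65 units in drug-loaded MNs, with overlapping groups, and its log2 fold change of 0.30 was -0.20 without HS replicate 2.

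**Figure D3:**
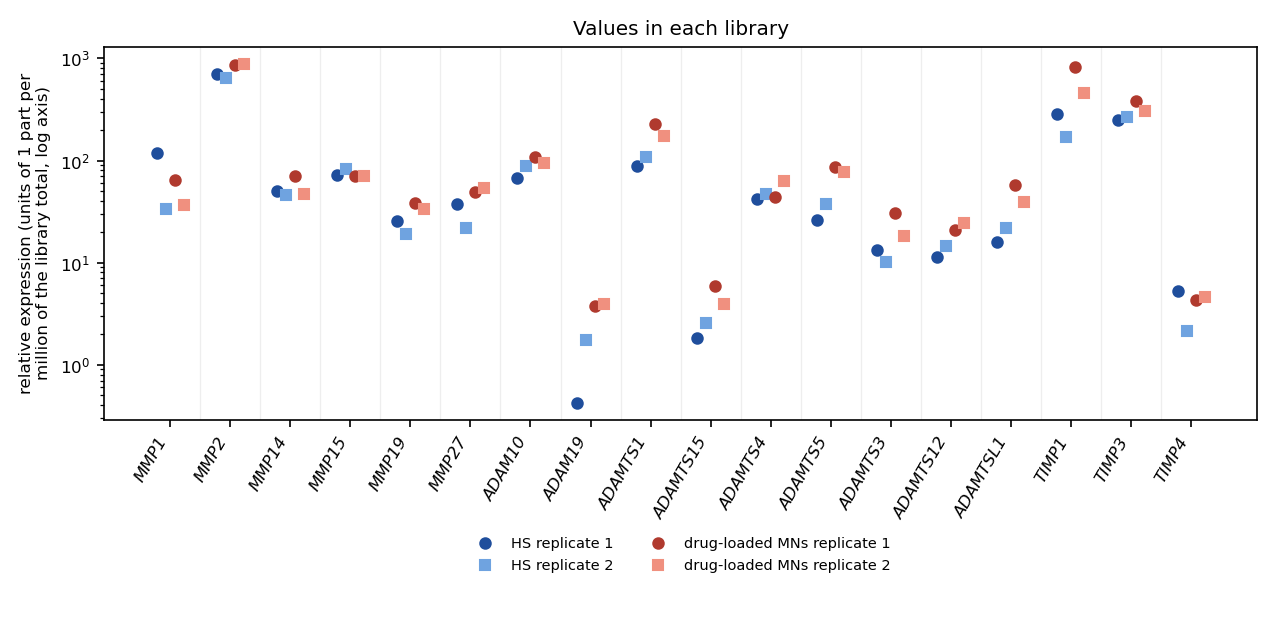
Relative expression of the 18 members named by the rule in each of the 4 libraries, on a log axis, where 1 unit is 1 part in 1000000 of the library. Values are to be compared between libraries within a gene: the drug-loaded MNs libraries lie above both HS libraries for TIMP1, ADAMTS1, ADAMTS5, ADAMTSL1 and ADAM19 among others, and the groups overlap for MMP1, MMP14, ADAMTS4 and TIMP4.

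To compare inhibitor with protease inside a library, where the scaling of that library hardly matters, TIMP1 and TIMP3 were set against MMP2 on the log2(value + 1) scale. In the HS libraries the log2 ratio of TIMP1 to MMP2 was -1.30 and -1.91. In the drug-loaded MNs libraries it was -0.06 and -0.95. Both drug-loaded MNs libraries had more TIMP1 per MMP2, by 1.10 on the log2 scale, with a pooled SD of 0.54. For TIMP3 the HS libraries had log2 ratios of -1.50 and -1.25 and the drug-loaded MNs libraries -1.16 and -1.52, so that the groups overlapped and their means differed by 0.033 (pooled SD 0.22). No test was run on these ratios, since with 2 libraries on each side the smallest two-sided p of an exact permutation test is 0.333.

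Since the summed fibroblast markers differed between the groups as well, the named members were also set against the summed fibroblast markers DCN, LUM and DPT of the same library, a comparison chosen after the values had been seen. This sum was 2892 and 3743 units in HS and 5694 and 5669 units in drug-loaded MNs. Because the sum itself was higher in both drug-loaded MNs libraries, a gene that rose less than the sum has a lower ratio. MMP2, ADAM10 and TIMP3 were themselves higher in both drug-loaded MNs libraries. How many of all tested genes are lower or higher by this ratio was not counted. Relative to it MMP2 was lower in both drug-loaded MNs libraries, with log2 ratios of -2.72 and -2.68 where the HS libraries had -2.04 and -2.54 (difference -0.41, pooled SD 0.25). MMP15 (difference -0.91, pooled SD 0.088), ADAM10 (-0.40, pooled SD 0.093), TIMP3 (-0.38, pooled SD 0.21), MMP14 (-0.55, pooled SD 0.38) and ADAMTS4 (-0.56, pooled SD 0.28) were also lower without overlap. ADAMTS5 was still higher, with log2 ratios of -6.02 and -6.19 where the HS libraries had -6.74 and -6.61 (difference 0.57, pooled SD 0.11). ADAMTSL1 (difference 0.51, pooled SD 0.27) and ADAM19 (0.51, pooled SD 0.29) were still higher without overlap too. TIMP1 had a difference of 0.69 with a pooled SD of 0.70 and overlapping groups. The groups also overlapped in the other members with an unadjusted p under 0.05 in limma. Their differences were 0.21 for ADAMTS1, 0.18 for ADAMTS3, 0.083 for ADAMTS15, 0.036 for MMP27, -0.019 for ADAMTS12 and -0.13 for MMP19. With the collagens COL1A1, COL1A2 and COL3A1 added to the sum, the differences were -0.66 for MMP2, 0.32 for ADAMTS5, 0.27 for ADAMTSL1, 0.26 for ADAM19 and 0.44 for TIMP1, and the groups overlapped in the last 4. Which cells express these genes was not tested, since the table holds no values per cell.

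**Figure D4:**
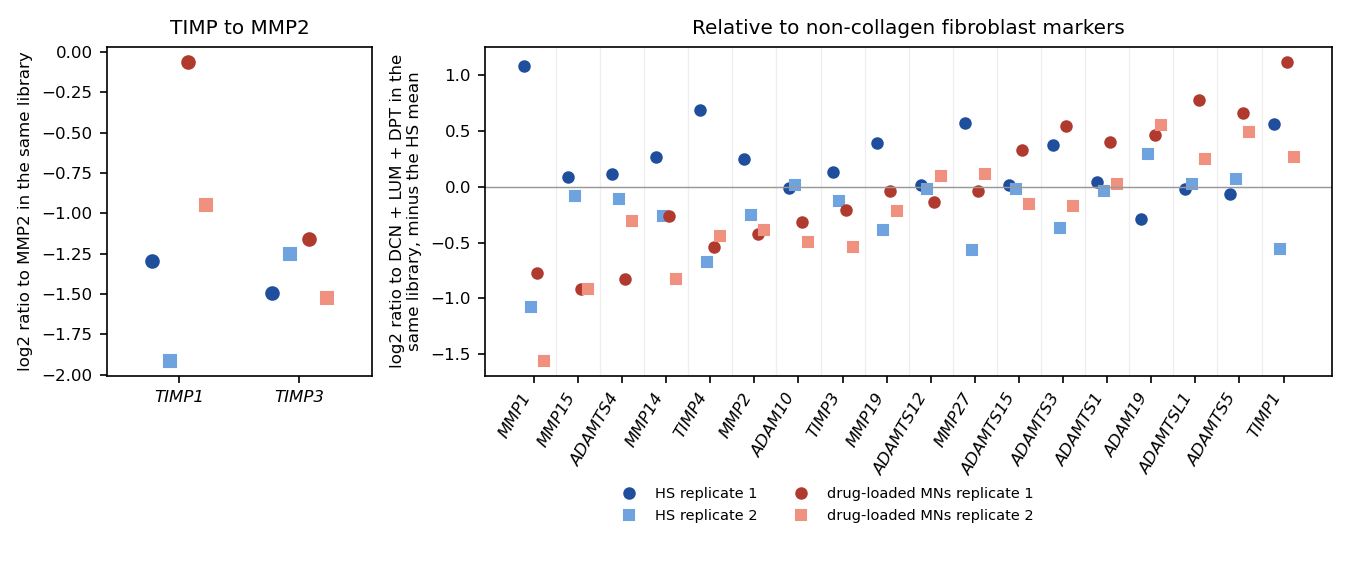
Log2 ratios within each library, with circles and squares for replicates 1 and 2 of each group; the left panel sets TIMP1 and TIMP3 against MMP2, and the right panel sets each named member against the sum of DCN, LUM and DPT and subtracts the mean of the HS libraries. TIMP1 per MMP2 is higher in both drug-loaded MNs libraries (-0.06 and -0.95, against -1.30 and -1.91), MMP2 and MMP15 lie below the HS libraries in the right panel, and ADAMTS5 lies above them. The sum of DCN, LUM and DPT is itself higher in both drug-loaded MNs libraries, which lowers the ratio of any gene that rose less.

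Genes that act on or with these enzymes were taken from lists. Of 7 tested activating proteases, none passed the adjusted threshold in limma. At an unadjusted p under 0.05, 2 were higher and 1 was lower (7.26% and 1.39% of all tested genes). PCSK5, a proprotein convertase, had 2.47 and 4.29 units in HS and 11.1 and 12.8 units in drug-loaded MNs (log2 fold change 1.59, limma adjusted p 0.270). CTSK, the collagen-degrading cathepsin K, had 310 and 244 units in HS and 508 and 478 units in drug-loaded MNs (log2 fold change 0.84, limma adjusted p 0.344). ST14, the epithelial serine protease matriptase, was lower, with 18.6 and 21.4 units in HS and 11.6 and 13.2 units in drug-loaded MNs (log2 fold change -0.65, limma adjusted p 0.527). The median of the list was -0.09.

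Of 7 tested inhibitors and regulators outside the TIMP family, 6 had a log2 fold change above 0 (median 0.49) and none passed in limma. RECK, a membrane-anchored MMP inhibitor, had 41.4 and 45.6 units in HS and 77.8 and 59.7 units in drug-loaded MNs (log2 fold change 0.64, limma adjusted p 0.495), and was the 1 gene of the list with an unadjusted p under 0.05 (7.26% of all tested genes were higher at this p). The 3 tested tetraspanin partners of ADAM10 had log2 fold changes from 0.061 to 0.61. Substrates of ADAM10 and ADAM17 had a median of -0.19 over 14 tested genes, 9 of them below 0. In 7 of these 14 both drug-loaded MNs libraries lay below both HS libraries (11.2% of all tested genes), and in none above. HBEGF, an EGF receptor ligand that is shed from the surface, had 249 and 376 units in HS and 147 and 227 units in drug-loaded MNs (log2 fold change -0.74, limma adjusted p 0.545). No gene of this list passed in limma, and HBEGF alone had an unadjusted p under 0.05 (1.39% of all tested genes were lower at this p). Basal and suprabasal keratinocyte markers, which mark cells rich in several of these substrates, had medians of -0.18 and -0.15. The groups overlapped in all 5 basal and all 4 suprabasal markers tested. The part of these cells in the substrate values was not tested. The 9 tested ADAMTS substrates had a median of 0.86, with 5 higher at an unadjusted p under 0.05 (against 7.26% of all tested genes) and none past the adjusted threshold in limma. COL3A1, COL1A1 and COL1A2 were among the 5 and are also fibroblast markers. FBN2, which codes for fibrillin-2, had 26.8 and 9.15 units in HS and 66.8 and 44.1 units in drug-loaded MNs (log2 fold change 1.72, limma adjusted p 0.346).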

How the data were processed

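Rabbit ear scar libraries were made with the 10x Genomics single-cell 3′ method. Per the labels and methods, the authors used Cell Ranger 2.1.1 and Seurat. The processing notes name the build mm10, although the gene identifiers are rabbit ones, so no coordinates are given. The deposited signal, 1 value per gene and library, is named FPKM but summed to 10000 in each column. The methods say that batch effects between samples were corrected, but not how, nor whether the deposited values are the corrected ones. How cells were combined and how doublets were treated was not stated. Of low values, 18.6% to 21.7% lay within 0.1 of a whole step, so reads were not recovered.

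Values were rescaled to 1000000 per library. A linear model of log2(value + 1) without covariates was made in limma 3.58.1 (R 4.3.3), using its moderated statistics with a mean trend, for the 9348 genes whose mean reached 1 unit. P-values were two-sided and Benjamini-Hochberg adjusted over all of them. No set test was run. Members and lists were chosen with earlier results of these data known. Named members were MMP2, MMP9, MMP14, TIMP1 to TIMP4, ADAM10 and ADAM17 where present, the 12 of highest mean, and those with an unadjusted p under 0.05 or an absolute log2 fold change over 1 without overlap. The 14 alternatives were 3 other scalings, pseudocounts of 0.1 and 5, 2 filters, 2 priors, a replicate block and leaving out each library. MMP3 and other members outside this rule were named to account for every member.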

Additional observations from a re-analysis of the deposited data

How the results depend on the processing

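The median log2 fold change of the tested members (0.37) stayed between 0.20 (quantile normalization) and 0.44 (without HS replicate 1), while the median of all tested genes went from 0.12 to -0.0010 with median ratio scaling and to -0.020 with quantile normalization. With these, 25 and 23 of 34 members were above 0. No member passed under the other scalings, pseudocounts, filters or priors. Over all genes 4 had passed. None did with a pseudocount of 5, no filter, a total without abundant genes, quantile normalization or median ratio scaling (0 genes each), and 1 did with eBayes without trend. The cause was not tested. Leaving out 1 library gave 0 to 75 genes and 0 to 1 members (TIMP1, without drug-loaded MNs replicate 2), the lone library being assumed to vary like the other group. With the replicate block, which leaves 1 residual degree of freedom, 241 genes and 5 members (TIMP1, ADAMTS5, ADAMTSL1, ADAMTS1 and ADAM19) passed. The same-numbered libraries share only a number. Their deviations correlated at 0.22. The count of members without overlap (18 of 34) was 16 of 34 with each other scaling. It was 22 of 44 with no filter and 13 of 20 with a minimum mean of 5. In these settings 36% to 38.9% of all tested genes did not overlap. A lone library overlaps less easily. Without HS replicate 1 the count was 27 of 33 (69.5% of all tested genes), and without HS replicate 2 it was 30 of 34 (78.3%). Without drug-loaded MNs replicate 1 it was 22 of 34 (60.5%), and without drug-loaded MNs replicate 2 it was 24 of 34 (67.1%).

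With 1 library left out, log2 fold changes ranged from -1.27 to 0.52 for MMP1 (0.022 without drug-loaded MNs replicate 2), from -0.20 to 0.80 for TIMP4, from -0.044 to 0.53 for MMP14 and from -0.031 to 0.48 for ADAMTS4. The other 14 named members kept their direction in every alternative that gave a value. With a minimum mean of 5, ADAM19, TIMP4 and ADAMTS15 had none. The TIMP1 to MMP2 difference (1.10) ranged from 0.66 to 1.54 with 1 library left out. Depth is unknown, and its limits were not assessed.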
